A study of Homo sapiens with 6 samples.

Results

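The genes described here are the cathepsins and legumain, the proteases that digest proteins inside the lysosome, in HT1080 cells treated with interferon β (IFNβ). They were chosen by name and are CTSA, CTSB, CTSC, CTSD, CTSK, CTSL, CTSO, CTSS, CTSZ and LGMN, which make 10 of the 62710 genes in the deposited table. HT1080 is an established human fibrosarcoma line, a tumor of mesenchymal origin. The libraries were 3 from untreated cells and 3 from cells given 20 ng/mL IFNβ for 24 h, with no other agent, genotype or clone distinguishing the groups. The labels name human IFNβ for these libraries, whereas the RNA sequencing methods of the paper name mouse IFNβ. The question was which transcripts changed when the cells were exposed to the cytokine. The labels number the libraries of a group as replicates and do not say that they came from separate cultures. The paper states at least 3 independent biological replicates for its in vitro experiments in general, without naming these libraries. The p-values weigh the difference between groups against the spread between these libraries, which may be technical.

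Lysosomal proteases are made as inactive precursors, carried to the lysosome on mannose 6-phosphate receptors and activated by cleavage in its acid interior. Most cathepsins use a cysteine in the active site, among them CTSB, CTSC, CTSK, CTSL, CTSO, CTSS and CTSZ, whereas CTSD uses aspartate and CTSA uses serine. LGMN, or asparaginyl endopeptidase, is a cysteine protease of another family that cuts after asparagine and helps to mature the cathepsins. In antigen-presenting cells these enzymes cut antigens and the invariant chain CD74 for the major histocompatibility complex (MHC) class II pathway, and type I interferon is a known inducer of antigen presentation genes.

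Promoter sequences are shown first because they let members that differed in response be set side by side. Of the 10 members, 5 were in the RefSeq promoter table on GRCh38.p14, namely CTSA, CTSC, CTSD, CTSL and CTSZ. CTSB, CTSK, CTSO, CTSS and LGMN were not, so the 3 members that rose at least 2-fold have no promoter here. The 250 bases before the RefSeq start are printed 5′ to 3′ on the strand of the gene for a member that passed the test upward (CTSL, chr9:87725869-87726118, plus strand), a member that passed downward (CTSA, chr20:45891085-45891334, plus strand) and a member that did not pass (CTSD, chr11:1763928-1764177, minus strand). Capitals mark CACGTG, the core letters bound by the lysosomal regulator TFEB and its relatives.
CTSL: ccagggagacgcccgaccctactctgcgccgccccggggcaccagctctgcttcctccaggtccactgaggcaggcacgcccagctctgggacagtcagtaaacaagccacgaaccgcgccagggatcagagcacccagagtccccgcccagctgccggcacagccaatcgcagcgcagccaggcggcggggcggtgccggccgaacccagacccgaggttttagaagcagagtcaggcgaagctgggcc
CTSA: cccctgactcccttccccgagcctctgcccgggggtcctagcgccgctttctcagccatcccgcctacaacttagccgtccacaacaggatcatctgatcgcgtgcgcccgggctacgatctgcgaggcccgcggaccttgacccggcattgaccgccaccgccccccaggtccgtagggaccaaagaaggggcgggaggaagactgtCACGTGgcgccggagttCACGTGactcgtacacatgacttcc
CTSD: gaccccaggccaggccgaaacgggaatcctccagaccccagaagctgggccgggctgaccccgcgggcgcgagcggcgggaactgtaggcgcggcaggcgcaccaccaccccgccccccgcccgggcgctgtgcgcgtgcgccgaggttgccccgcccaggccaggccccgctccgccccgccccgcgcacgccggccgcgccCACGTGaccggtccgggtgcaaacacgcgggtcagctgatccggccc
CACGTG, which is its own reverse complement, began at position -42 and again at position -25 from the start in CTSA and at position -47 in CTSD. It was in 2 of the 5 member promoters, in 24.2% of the 95 promoters found for 132 other lysosomal genes, and in 7.26% of all 35116 promoters, searched over 300 bases each. The core of an interferon-stimulated response element, a pair of GAAA blocks with any 2 bases between them, searched on both strands, was in 0 of the 5 and in 3.57% of all promoters. TTCNNNGAA, the letters of a STAT site and its own reverse complement, was in 0 of the 5 and in 7.66% of all promoters. These matches describe the letters in this window only, and 5 promoters are too few to set 0 matches against shares this low. The printed windows of CTSL, CTSA and CTSD all lie inside the spans of these genes in GENCODE release 29. The outermost starts in that release are further upstream, and the sequence before them was not searched.

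The values were FPKM, the fragments of a gene divided by its length and by the total of its library. The libraries had between 22848104 and 32915500 fragments, so that 1 fragment of a 1 kb gene was worth 0.0304 to 0.0438 FPKM. Fragments of the members are the smallest whole numbers that give the listed FPKM in every library, and are fixed only up to a whole factor. Of the 5 interferon-stimulated genes used to check the treatment, all 5 were upregulated, among them IFIT1, from 0.916 ± 0.038 to 413 ± 3.3 FPKM (SD, n = 3 per group here and below). The 6 mesenchymal markers summed to between 1340 and 1360 FPKM in untreated and between 1240 and 1290 FPKM in IFNβ libraries, with 2 higher and 2 lower, a count of lower that was 1 without untreated replicate 2, untreated replicate 3, IFNβ replicate 1 or IFNβ replicate 2. Of 7 blood cell markers 5 averaged under 0.1 FPKM, PTPRC among them, and the list summed to 1.31 to 1.4 FPKM in untreated and 1.18 to 1.39 FPKM in IFNβ libraries. The other 2 blood cell markers were tested and did not pass, and the highest single value in that list was 1.1 FPKM. Of 6 epithelial and endothelial markers 5 averaged under 0.1 FPKM, with sums of 0.219 to 0.374 and 0.37 to 0.496 FPKM. In bulk RNA a change in the share of some cells and a change in the RNA per cell cannot be told apart.

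IFNβ-treated cells had more RNA of the lysosomal proteases, and the difference was carried by few members. CTSS, LGMN and CTSO rose at least 2-fold, CTSL rose to 1.56 times the untreated level, CTSB and CTSZ to 1.06 and 1.08 times, CTSA fell to 0.92 times, CTSD and CTSK did not pass the test, and CTSC was listed at 0. Of the 10 members, 9 had a mean of at least 0.1 FPKM and were tested with limma on log2(FPKM + 0.1) among 20716 genes. At a Benjamini-Hochberg adjusted p under 0.05, 6 of the 9 were higher, against 15.2% of all genes tested, and 1 was lower, against 17.5%. At least 2-fold higher were 3 of the 9, against 3.49% of all genes tested, and 0 of the 9 were at least 2-fold lower, against 0.739%. The groups did not overlap for 7 of the 9, against 46.6% of all genes tested, with IFNβ above in 6 and below in 1, where 22.3% and 24.3% of all genes tested had IFNβ above and below. The median log2 fold change of the 9 was 0.20, and that of all genes tested was 0.0. The members were chosen with earlier results of these data known, so these counts describe them and are not a test of the group.

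**Figure D1:**
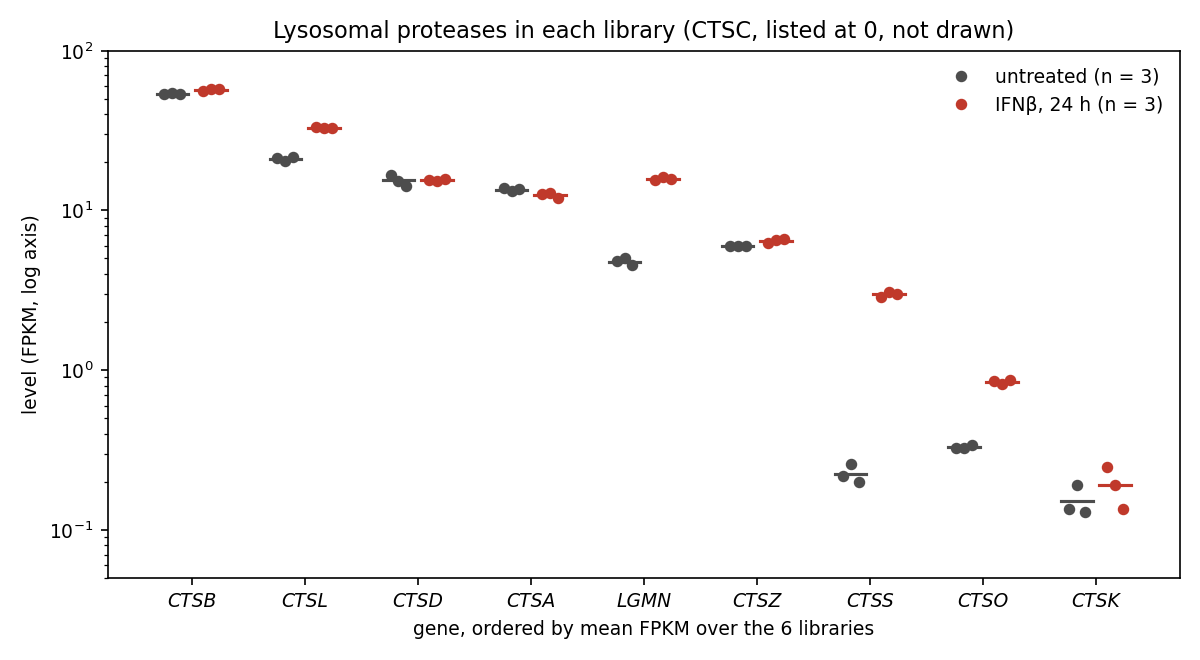
FPKM of each lysosomal protease (log axis) in the 3 untreated and 3 IFNβ libraries, 1 point per library with the group mean as a line. CTSS moved from a mean of 0.225 to 2.99 FPKM and LGMN from 4.78 to 15.8 FPKM, while the points of CTSD and CTSK overlap between the groups; CTSC, listed at 0, is not drawn.

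Among the cysteine endopeptidases, CTSS showed the largest rise of all members. Cathepsin S is the enzyme that removes the last part of the invariant chain in antigen-presenting cells and stays active at neutral pH. CTSS (ENSG00000163131, chr1:150730196-150765957, minus strand, GRCh38) had 0.216, 0.259 and 0.198 FPKM in the untreated libraries and 2.85, 3.10 and 3.01 FPKM in the IFNβ libraries. Every IFNβ library lay far above every untreated library, and the untreated values rested on few fragments, 34, 53 and 45, against 605, 533 and 600. The means were 0.225 ± 0.0313 and 2.99 ± 0.125 FPKM, a ratio of 13.3, and the log2 fold change was 3.25 (SE 0.11, 95% interval 2.99 to 3.52, limma adjusted p = 5.1e-06). It ranked 96 of 20716 genes by log2 fold change. The size of the log2 fold change depended on the pseudocount, with 1.70 at a pseudocount of 1 and 3.68 at 0.01.

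CTSK, the collagen-degrading cathepsin of osteoclasts, lies beside CTSS on chromosome 1 (ENSG00000143387, chr1:150796208-150808323), on the same strand, with 30250 bases between them. It had 0.135, 0.192 and 0.129 FPKM in the untreated libraries and 0.246, 0.190 and 0.135 FPKM in the IFNβ libraries. The groups overlapped, and each library held only 26 to 64 fragments of CTSK. The log2 fold change was 0.20 (SE 0.26, limma adjusted p = 0.62), and its 95% interval of -0.43 to 0.82 lay below the interval of CTSS. Changes within that interval were not detectable at this depth.

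CTSL, a broad endopeptidase that is the second most abundant member by FPKM, also rose. CTSL (ENSG00000135047, chr9:87725519-87731393, plus strand) had 21.2, 20.3 and 21.7 FPKM in the untreated libraries and 33.4, 32.6 and 32.7 FPKM in the IFNβ libraries. The groups were well apart, and the spread within each was narrow, with means of 21.1 ± 0.688 and 32.9 ± 0.449 FPKM. The log2 fold change was 0.64 (SE 0.03, 95% interval 0.57 to 0.71, limma adjusted p = 1.9e-05), and it passed the test under all 16 alternative settings, with 0.61 to 0.66. CTSL has unprocessed pseudogenes of similar sequence. One of them, CTSLP8, had 0.812 ± 0.137 and 1.82 ± 0.555 FPKM (log2 fold change 1.05, limma adjusted p = 0.013). CTSLP1 had 1.18 ± 0.0781 and 1.45 ± 0.0384 FPKM (0.28, limma adjusted p = 0.04), a call that held under 7 of 16 alternative settings. CTSLP4 and CTSLP6 did not pass, and CTSLP3 was listed at 0. Whether fragments were shared between CTSL and its copies was not tested.

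CTSO is a less studied cysteine cathepsin with low RNA in these cells. CTSO (ENSG00000256043, chr4:155924118-155953917, minus strand) had 0.327, 0.324 and 0.338 FPKM in the untreated libraries, from 59 to 88 fragments, and 0.850, 0.815 and 0.867 FPKM in the IFNβ libraries, from 161 to 207 fragments. Both groups were tight and did not overlap. The means of 0.330 ± 0.00754 and 0.844 ± 0.0264 FPKM gave a ratio of 2.56, and the log2 fold change was 1.14 (SE 0.12, 95% interval 0.85 to 1.42, limma adjusted p = 0.0007). At a pseudocount of 1 the log2 fold change was 0.47 and no longer 2-fold, though still past the test.

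CTSB, which cuts within proteins and also removes dipeptides from their end, was the most abundant member by FPKM. CTSB (ENSG00000164733, chromosome 8) had 53.6, 54.4 and 53.5 FPKM in the untreated libraries and 55.9, 57.5 and 57.5 FPKM in the IFNβ libraries. The IFNβ libraries were all higher, by a small margin. The means of 53.8 ± 0.508 and 56.9 ± 0.905 FPKM differed by a ratio of 1.06, with a log2 fold change of 0.08 (SE 0.02, 95% interval 0.04 to 0.13, limma adjusted p = 0.018). CTSB passed under 12 of 16 alternative settings, and its adjusted p was 0.062 without untreated replicate 3, 0.068 without IFNβ replicate 2, 0.067 without IFNβ replicate 3 and 0.13 without the intensity trend.

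The cysteine exopeptidases were CTSZ and CTSC. CTSZ, a carboxypeptidase also called cathepsin X (ENSG00000101160, chr20:58995185-59007247, minus strand), had 5.97, 5.99 and 5.99 FPKM in the untreated libraries and 6.27, 6.54 and 6.62 FPKM in the IFNβ libraries. The untreated values were nearly equal and all lay under the IFNβ values. The means of 5.99 ± 0.0119 and 6.48 ± 0.184 FPKM gave a log2 fold change of 0.11 (SE 0.03, 95% interval 0.03 to 0.19, limma adjusted p = 0.042). This call held under 7 of 16 alternative settings, and the adjusted p was 0.097, 0.094 and 0.097 without untreated replicate 1, 2 and 3 and 0.12 and 0.13 without IFNβ replicate 2 and 3. The fragments counted for CTSZ had been divided by a length of at least 19384 bases, above the 12063 bases that the gene spans in GENCODE release 29. Those of CTSL had likewise been divided by at least 6113 bases, above its span of 5875 bases. Except for LGMN, the members above 0 were all divided by more than their exon length in that release. NELFCD, a subunit of the negative elongation factor that lies next to CTSZ on the other strand, had 0 to 3 fragments per library, and the part of neighbouring fragments in the values of CTSZ was not tested.

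CTSC, or dipeptidyl peptidase 1, activates the serine proteases of granules in blood cells. CTSC (ENSG00000109861, chr11:88293592-88337787, minus strand) was listed at 0 in all 6 libraries and was not tested. MRPL53, a protein of the mitochondrial ribosome, and RAB38, which lies near CTSC on the same strand, were also listed at 0 in all 6 libraries, so nothing more than the listing is given for CTSC.

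LGMN rose in every IFNβ library. LGMN (ENSG00000100600, chr14:92703807-92748702, minus strand) had 4.79, 5.00 and 4.56 FPKM in the untreated libraries, from 424 to 582 fragments, and 15.4, 16.1 and 15.8 FPKM in the IFNβ libraries, from 1559 to 1837 fragments. The lowest IFNβ library lay far above the highest untreated library. The means of 4.78 ± 0.219 and 15.8 ± 0.355 FPKM gave a ratio of 3.29 and a log2 fold change of 1.70 (SE 0.04, 95% interval 1.6 to 1.8, limma adjusted p = 1e-06), which ranked 396 of 20716 genes. LGMN passed under all 16 alternative settings, with 1.53 to 1.73. The study placed LGMN on its list of ferroptosis-related genes that changed in these same libraries, so that list is not independent evidence of its direction.

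The aspartic and the serine protease changed little. CTSD, cathepsin D, the main aspartic protease of the lysosome (ENSG00000117984, chr11:1752752-1764573, minus strand), had 16.7, 15.2 and 14.3 FPKM in the untreated libraries and 15.5, 15.3 and 15.7 FPKM in the IFNβ libraries. The IFNβ values lay inside the range of the untreated values. The log2 fold change was 0.01 (SE 0.05, 95% interval -0.12 to 0.14, limma adjusted p = 0.89), and it was -0.04 without untreated replicate 3. Some exons of CTSD overlap those of other annotated genes on both strands.

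CTSA, a serine carboxypeptidase that also protects the sialidase NEU1 and the galactosidase GLB1 in a complex (ENSG00000064601, chr20:45890144-45898820, plus strand), had 13.9, 13.2 and 13.6 FPKM in the untreated libraries. In the IFNβ libraries it had 12.6, 12.8 and 12.0 FPKM, each below every untreated library. The means of 13.5 ± 0.328 and 12.5 ± 0.373 FPKM gave a ratio of 0.92 and a log2 fold change of -0.12 (SE 0.03, 95% interval -0.20 to -0.04, limma adjusted p = 0.032). The call held under 8 of 16 alternative settings. The adjusted p was 0.089 and 0.085 without untreated replicate 1 and 3, and 0.068 and 0.086 without IFNβ replicate 1 and 3. Exons of CTSA overlap those of PLTP and NEURL2 on the other strand, and since it is not known whether the counting used strand, fragments from the overlap cannot be told apart.

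**Figure D2:**
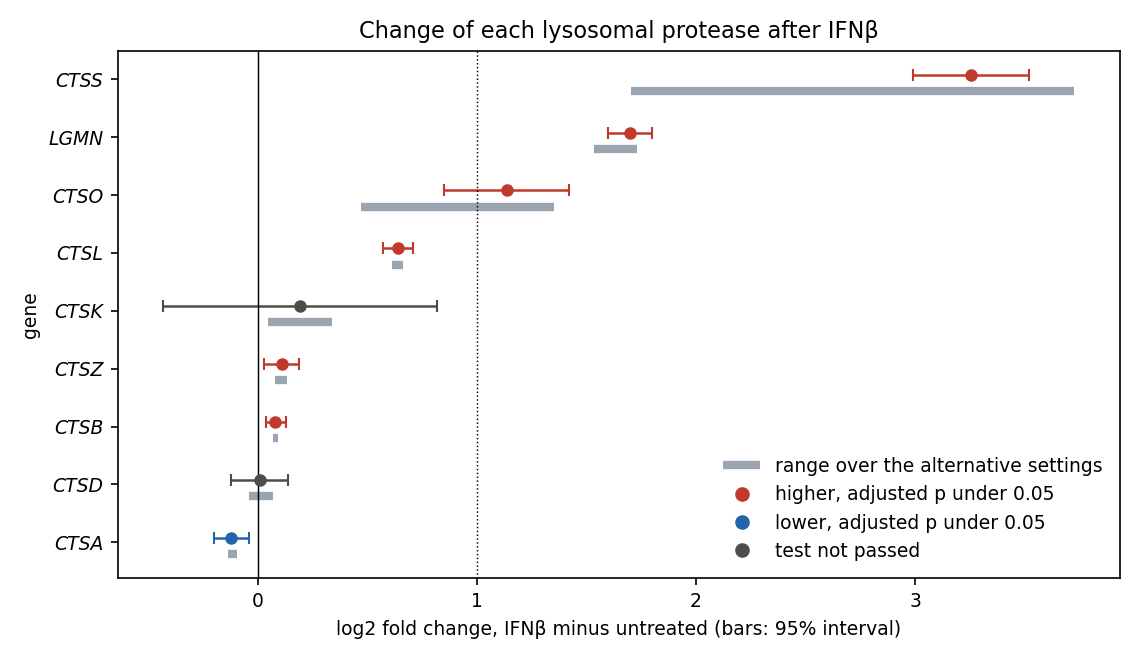
Log2 fold change of each tested member, IFNβ minus untreated, with its 95% interval from limma (points and thin bars) and the range over the alternative settings (thick grey bars); the dotted line is a 2-fold rise. LGMN and CTSL have narrow ranges, CTSS reaches from 1.70, at a pseudocount of 1, to 3.73, with limma-voom on recovered fragments, and CTSB, CTSZ, CTSA and CTSD lie within 0.2 of no change.

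Summed over the 10 members, the level was 116.8, 114.9 and 114.2 FPKM in the untreated libraries and 143.1, 144.9 and 144.3 FPKM in the IFNβ libraries. The sums did not overlap, with means of 115 ± 1.32 and 144 ± 0.91 FPKM. CTSB made 46.7 ± 0.733% of the sum in untreated and 39.5 ± 0.401% in IFNβ libraries, CTSL 18.3 ± 0.65% and 22.9 ± 0.455%, and LGMN 4.15 ± 0.184% and 10.9 ± 0.179%. CTSS made 0.195 ± 0.0273% and 2.07 ± 0.0736% of the sum, so that its large ratio added little to the total. CTSD, at 13.3 ± 0.877% and 10.8 ± 0.179%, and CTSA, at 11.7 ± 0.218% and 8.65 ± 0.264%, took smaller shares of the larger sum. The shares depend on the gene lengths. With the exon lengths of GENCODE release 29, an alternative chosen after the data were seen, the sum was 242 ± 2.27 FPKM in untreated and 298 ± 1.87 FPKM in IFNβ libraries. CTSZ then made 23.5 ± 0.264% and 20.7 ± 0.461% of it, in place of 5.19 ± 0.0692% and 4.5 ± 0.105%. On the same lengths CTSB made 31.5 ± 0.504% and 27.1 ± 0.262%, CTSL 22.5 ± 0.713% and 28.6 ± 0.57%, and LGMN 1.96 ± 0.093% and 5.26 ± 0.0916%. On both sets of lengths CTSL, LGMN and CTSS took larger shares in IFNβ than in untreated libraries, and CTSB, CTSD, CTSA and CTSZ smaller ones.

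**Figure D3:**
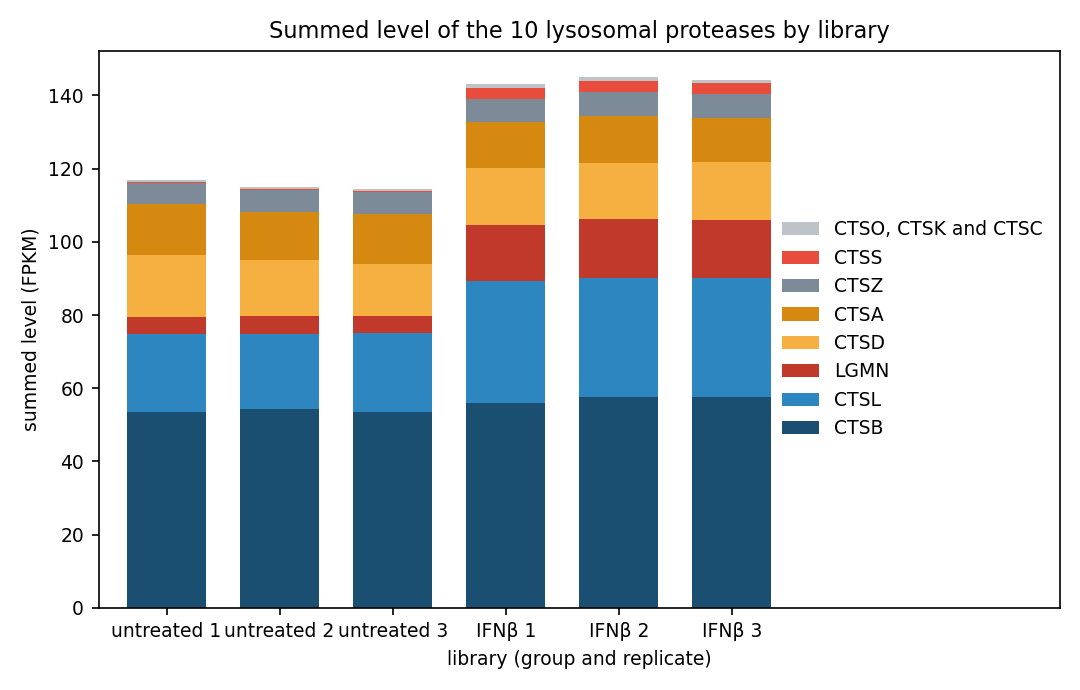
Summed FPKM of the 10 lysosomal proteases in each library, stacked by gene, with CTSO, CTSK and CTSC drawn together. The untreated bars reach 114.2 to 116.8 FPKM and the IFNβ bars 143.1 to 144.9 FPKM, and the LGMN and CTSL segments are the ones that grow most.

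By FPKM the order in untreated cells was CTSB, CTSL, CTSD, CTSA, CTSZ, LGMN, CTSO, CTSS and CTSK, and no neighbours in that order overlapped between their 3 libraries. In IFNβ libraries LGMN stood between CTSL and CTSD, and its range of 15.4 to 16.1 FPKM overlapped that of CTSD, 15.3 to 15.7 FPKM. CTSS passed CTSO, and the other members kept their order. Levels of different genes depend on the lengths that the authors divided by. With the release 29 lengths, CTSZ had 56.9 and 61.6 FPKM in untreated and IFNβ libraries, and stood next to CTSL, with 54.5 and 85.1 FPKM, and CTSB, with 76.4 and 80.8 FPKM. On that scale CTSL was the highest member in IFNβ libraries and CTSS, at 0.366 FPKM, was the lowest one above 0 in untreated libraries. The length is the same in every library, so ratios between groups are not touched by it.

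The other lysosomal genes are given for comparison, as 7 lists of 132 genes in all, of which 115 were tested. Of these, 41 were higher and 11 lower, together 45.2% against 32.7% of all genes tested, with a median log2 fold change of 0.11. Lists describe counts only, and no list was tested as a set.

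The 13 other lysosomal proteases summed to 45.1 to 46.5 FPKM in untreated and 46.7 to 47.5 FPKM in IFNβ libraries. Of them, 9 were tested and 1 passed. This was PRCP, a carboxypeptidase, with 2.14 ± 0.0345 and 2.41 ± 0.0227 FPKM (log2 fold change 0.17, limma adjusted p = 0.042), and the count was 0 when any of the 6 libraries was left out. The cathepsins CTSF, CTSH and CTSV, which are not among the 10 members, had 0.904, 0.442 and 0.395 FPKM in untreated and 1.02, 0.424 and 0.377 FPKM in IFNβ libraries, and none of them passed. Of 12 protease inhibitors 5 were tested, and 1, CST3, passed. CST3, cystatin C, the main secreted inhibitor of cysteine cathepsins, rose from 21.5 ± 0.63 to 33.3 ± 1.03 FPKM (log2 fold change 0.63, limma adjusted p = 3.6e-05). CSTB, the inhibitor inside the cell, had 15.1 ± 0.666 and 15.9 ± 0.428 FPKM and did not pass (limma adjusted p = 0.2). Without untreated replicate 2 a further inhibitor passed, downward.

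All 10 genes that sort enzymes to the lysosome were tested, and 2 were higher and 1 lower. SCARB2, the receptor that carries glucocerebrosidase and not the cathepsins, rose from 13.4 ± 0.235 to 27.4 ± 0.37 FPKM (log2 fold change 1.02, limma adjusted p = 7.3e-07). Of the enzyme that builds the mannose 6-phosphate tag, GNPTAB fell from 10.5 ± 0.621 to 8.93 ± 0.113 FPKM (-0.22, limma adjusted p = 0.011) and GNPTG rose from 4.56 ± 0.266 to 5.32 ± 0.0404 FPKM (0.22, limma adjusted p = 0.015). Without IFNβ replicate 2 GNPTG had an adjusted p of 0.052, and without untreated replicate 1 the number lower was 2.

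Of 25 subunits of the proton pump that acidifies the lysosome, 23 were tested, 9 were higher and 2 were lower. TCIRG1 rose from 14.4 ± 0.255 to 26.2 ± 0.605 FPKM (log2 fold change 0.85, limma adjusted p = 3.1e-06). ATP6V1C1 fell from 17.5 ± 0.0697 to 13.1 ± 0.199 FPKM (-0.41, limma adjusted p = 3.7e-05), and ATP6V1E2 fell from 1.54 ± 0.114 to 0.718 ± 0.119 FPKM (-1.01, limma adjusted p = 0.0019). The log2 fold change of ATP6V1E2 was -0.57 at a pseudocount of 1, and its exons overlap those of RHOQ on the other strand.

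Of 23 lysosomal membrane proteins 21 were tested, 9 were higher and 4 lower, and the number lower was 2 without untreated replicate 2, IFNβ replicate 1 or IFNβ replicate 3. SLC15A3, a transporter of peptides and histidine, went from 1, 3 and 4 fragments without IFNβ to 3021, 2579 and 2788 fragments with it, or 14.3 ± 0.507 FPKM (limma adjusted p = 4.1e-08). Some of its exons lie across from TMEM132A exons on the other strand, and its log2 fold change of 7.0 depended on the pseudocount, with 3.92 at a pseudocount of 1 and 9.33 at 0.01. LAMP3, the lysosomal marker of mature dendritic cells, rose from 10, 13 and 5 fragments to 98, 96 and 101, a log2 fold change of 2.46 (limma adjusted p = 0.00043) that was 0.82 at a pseudocount of 1. CD164 rose from 49.8 ± 0.292 to 81.0 ± 0.904 FPKM (0.70, limma adjusted p = 9e-07).

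Of 36 other hydrolases and their helper proteins 34 were tested, 15 were higher and 1 was lower, a count of lower that was 0 without untreated replicate 1, untreated replicate 2 or IFNβ replicate 2. ACP2, an acid phosphatase, rose from 5.69 ± 0.4 to 12.3 ± 0.395 FPKM (log2 fold change 1.10, limma adjusted p = 3.6e-05). Exons of ACP2 overlap those of NR1H3 on the other strand. LIPA, the lysosomal acid lipase, rose from 14.5 ± 0.216 to 31.0 ± 1.22 FPKM (1.10, limma adjusted p = 2.9e-06), while some of its exons lie across from exons of the interferon-stimulated gene IFIT2 on the other strand. DNASE2, which digests DNA in the lysosome, rose from 0.193 ± 0.0262 to 0.492 ± 0.0586 FPKM, on 15 to 66 fragments per library (1.02, limma adjusted p = 0.0058, and 0.32 at a pseudocount of 1). IFI30, the thiol reductase that works with the cathepsins on antigens, had 0 to 4 fragments per library and was below the filter.

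Among 13 regulators of lysosomal genes, all tested, 4 were higher and 3 lower, and without IFNβ replicate 3 the number higher was 2. Of the transcription factors that bind CACGTG, TFEB had 1.12 ± 0.12 and 1.65 ± 0.207 FPKM (log2 fold change 0.52, limma adjusted p = 0.02) and TFEC had 0.188 ± 0.0524 and 0.485 ± 0.0313 FPKM (1.04, limma adjusted p = 0.0098), both higher. TFEC rested on 45, 33 and 59 fragments without IFNβ and 120, 106 and 128 with it. At a pseudocount of 1 the log2 fold changes of TFEC, TFEB and MITF were 0.32, 0.32 and -0.36, all still past the test. MITF fell from 1.49 ± 0.165 to 0.936 ± 0.0866 FPKM (-0.62, limma adjusted p = 0.0077), and TFE3, the most abundant of them by FPKM, fell from 21.3 ± 0.586 to 19.0 ± 0.621 FPKM (-0.16, limma adjusted p = 0.011). The adjusted p of TFEB was 0.051 without untreated replicate 1, 0.061 without untreated replicate 3 and 0.071 without IFNβ replicate 2 or 3.

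The MHC class II pathway, in which CTSS, CTSL and LGMN act in antigen-presenting cells, had 16 listed genes, of which 10 were tested. Of these, 4 were higher, against 15.2% of all genes tested, and 0 were lower. Together 40% of them passed, against 32.7% of all genes tested. CD74, the invariant chain that cathepsin S cuts, was counted at 12, 17 and 11 fragments without IFNβ and at 82, 69 and 85 fragments with it. Its groups did not overlap, and it rose from 0.105 ± 0.0279 to 0.616 ± 0.0312 FPKM (log2 fold change 1.81, limma adjusted p = 0.00072), which left it below CTSS in FPKM. At a pseudocount of 1 the log2 fold change of CD74 was 0.55, still past the test. RFX5 rose from 10.7 ± 0.341 to 14.9 ± 0.258 FPKM (0.47, limma adjusted p = 0.0001) and RFXANK from 7.56 ± 0.549 to 9.30 ± 0.325 FPKM (0.30, limma adjusted p = 0.0092), both subunits of the factor that binds class II promoters. CIITA, the master regulator of class II genes, had 0.142 ± 0.0153 and 0.230 ± 0.0353 FPKM and did not pass (0.44, limma adjusted p = 0.18). CIITA passed under 2 of 15 alternative settings. The adjusted p was 0.0014 from limma-voom on recovered fragments and 0.029 from limma without the intensity trend. HLA-DRB1, HLA-DRB5, HLA-DQA1 and HLA-DQB1 were listed at 0 in all 6 libraries.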

How the data were processed

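RNA was sequenced from HT1080 cells in 3 untreated and 3 IFNβ-treated libraries, grouped by their labels. The deposited values are FPKM per Ensembl gene and library, computed by the authors, not pooled. The submitters' processing notes name fastp, HISAT2, StringTie and GRCh38, and the paper names DESeq2 for its own differential expression analysis. The annotation, gene lengths and use of strand are not given in the sources used here. Every FPKM was a whole multiple of the value of 1 fragment, so fragments were recovered for 35303 genes (tolerance 1e-06 fragments). For 16322 genes the exon length of GENCODE release 29 gave whole numbers, and for the other 18981, the members above 0 included, the lowest set of whole numbers that keeps the ratios of the values was taken, which is fixed only up to a whole factor. The recovered fragments added up to 99.73% of each library. Gene positions come from release 29 on GRCh38, which lacks 4436 of the gene IDs. Exon overlaps with other genes are pointed out for some genes only. They also exist for GNPTG, TCIRG1, ATP6V1C1, CD164 and DNASE2, among others.

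Groups were compared with limma 3.58.1 (R 4.3.3), using linear models (lmFit) moderated by eBayes along an intensity trend. Values entered as log2(FPKM + 0.1), from 20716 genes that averaged at least 0.1 FPKM, without covariates and with Benjamini-Hochberg adjustment over all of them. Fold changes on this scale understate those of low genes, and ratios are of mean FPKM. For single values, an exact two-sided permutation test of 3 against 3 cannot go below 0.10. The procedure was tested on simulated data in which only better covered genes were changed, each by at least 2-fold up or down. That simulation does not cover low genes such as CTSS, CTSO and CTSK, or changes as small as those of CTSB, CTSZ and CTSA. Other pseudocounts, filters, scalings and variance models, the replicate number as a block, limma-voom on recovered fragments and each library left out made 16 alternative settings, and another gene length for levels and shares was added after the data were seen.

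The members and gene lists were chosen with earlier results of these data known. Named outside the members are, for each list, genes past an adjusted p of 0.05 and 2-fold (at most 5) and, where these are fewer than 3, those with the largest change among genes past the test with a mean of at least 1 FPKM, up to 3 in all, and CIITA, CD74, IFI30, TFEB, TFE3, MITF, CST3 and CSTB. IFIT1, CTSF, CTSH, CTSV, the CTSL pseudogenes, MRPL53, RAB38, NELFCD and PTPRC, and the HLA genes listed at 0, were named after their values were seen.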

Additional observations from a re-analysis of the deposited data

How the results depend on the processing

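The numbers of members higher (6) and at least 2-fold higher (3) stayed within 1.5 times of these counts under all 16 alternative settings. Within that margin CTSB and CTSZ both lost their calls without untreated replicate 3, IFNβ replicate 2 or IFNβ replicate 3. CTSO was no longer 2-fold at a pseudocount of 1. CTSL, CTSS and LGMN passed under all 16 settings, and CTSO under all 15 in which it was tested. The number lower, 1 (CTSA), was 0 without the filter on low values, with equal FPKM totals, without the intensity trend and with the replicate number as a block, and 0 to 1 when single libraries were left out. The cause was not tested. The log2 fold change of CTSD, 0.01, was -0.038 without untreated replicate 3 and up to 0.071 without untreated replicate 1, the sole turn of direction among members. Of other named genes, CTSH (-0.06) ranged from -0.134 to 0.071 with single libraries left out, above 0 without IFNβ replicate 3, and CTSV (-0.06) from -0.138 to 0.065, above 0 without untreated replicate 3 (0.014) and without IFNβ replicate 2, none of them past the test. All genes passing the test numbered 6778, with 5579 to 7938 over the alternatives, the highest from limma-voom on recovered fragments. Same-numbered libraries correlated at 0.014 to 0.0307 in their deviations from the group means, so the numbers are not taken to pair the libraries, although each library correlated best with its own number. With the replicate block 6069 genes passed, with 5 members higher (CTSZ lost, adjusted p = 0.081) and 0 lower (CTSA, adjusted p = 0.064), and PRCP lost its call. Under quantile normalization all genes had a median of -0.06 on the log2 scale, and under median ratio scaling and equal FPKM totals 0.003 and 0.012. Depth limits CTSK, CTSF, CTSV, the CTSL pseudogenes, ATP6V1E2, LAMP3, CD74, TFEC and DNASE2, and in untreated cells CTSO, CTSS and SLC15A3, among others. Each had fewer than 100 fragments in some libraries.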
